A study of Bos taurus with 16 samples.

Results

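The trophectoderm transcription factors examined here were CDX2, GATA2, GATA3, TFAP2A, TFAP2C, TEAD4, EOMES, ELF3, ELF5 and ASCL2, 10 genes chosen by symbol. Of these, 9 had a row among the 22358 loci of the count tables, and ELF3 was not analysed here because no row carried that symbol. The RNA came from expanded blastocysts recovered from 8 superovulated Holstein cows fed from calving until flushing. Control cows received a basal diet, and methionine-rich cows received the same basal diet formulated to deliver more methionine; no other allele or agent separated the groups. Each treatment had 4 cows with 2 pools per cow, so there were 16 pools in all, named here by treatment, cow and pool (C1.1 to C4.2 and M5.1 to M8.2). By the study's account a pool held few blastocysts, and C4.1, C4.2 and M8.2 were single blastocysts. Most methionine-rich pools held more blastocysts than any control pool. Most also had a lower RNA quality number than any control pool for which one is given. Differences between the treatments therefore cannot be told apart from these differences in pool make-up and RNA quality. The age of the cows is not given in the sources used here, and the pools of a cow share a dam, so p-values computed over pools treat related samples as independent. Although the labels give the tissue as IVF embryos, the study's methods describe embryos flushed from inseminated cows.

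The trophectoderm is the outer epithelium of the blastocyst, which pumps fluid into the cavity and later forms the placental trophoblast. In the mouse, TEAD4 with the coactivators YAP1 and WWTR1 switches on CDX2 and GATA3 in outside cells, where Hippo signalling is low, while EOMES, ELF5, TFAP2C and ASCL2 act in the trophoblast stem cell and its descendants. In ruminants the trophectoderm keeps POU5F1 for longer than in the mouse, and CDX2 and GATA factors are known to act on the promoter of interferon tau, the signal by which the conceptus maintains pregnancy. Levels are given as CPM, the counts of a locus scaled to the total count of its pool. Transcript lengths of the assembly used by the authors were not at hand, so differences in CPM between genes cannot be read as differences in transcript number.

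Total counts were between 5624126 and 7826542 in 15 of the 16 pools, with 10225 to 12096 loci counted in each. Pool C3.2 held 1745048 counts over 7736 loci and was left out by the study for its small share of exonic reads, and here its values are given apart from those of the other 7 control pools. At these depths 3 counts, taken as the limit of detection, correspond to 0.383 to 0.533 CPM in the 15 pools and to 1.72 CPM in C3.2. This limit covers counting error only. Some epithelial genes of the trophectoderm were counted in quantity. KRT18, a keratin of simple epithelia, was at 1757 to 6291 CPM. ATP1B3, a sodium pump subunit, averaged 1575 CPM in the control and 1913 CPM in the methionine-rich pools. Others of the same list were low. KRT19 averaged 5.54 and 4.21 CPM in control and methionine-rich pools. CDH1 averaged 4.16 and 2.85 CPM and had a count in 13 of the 15 pools. Pool C2.1 also held leukocyte transcripts, with 2064 CPM summed over 10 leukocyte markers against at most 17.2 CPM in the other control pools of the 15 and 7.10 CPM in the methionine-rich pools. LAPTM5 gave 1239 CPM of the C2.1 sum and TYROBP 377.3 CPM. LCP1, LYZ, CD53 and ITGB2 gave 40.2 to 183.3 CPM each. PTPRC, CORO1A, CD74 and FCER1G were at 3.20 CPM or less in that pool. In C3.2 the sum was 167.9 CPM, of which PTPRC gave 159.3 CPM.

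The 9 genes fell into 3 patterns over the pools. GATA2, GATA3, TFAP2C and TEAD4 had at least 10 counts in every one of the 15 pools. CDX2 was counted in 12 of 15 pools at few CPM, with 48.2% of its counts in 1 pool. TFAP2A, ELF5, EOMES and ASCL2 had no count in most pools and together held 373 counts, of which 206 (55.2%) lay in the single pool M6.1. None of the 6 members that could be tested passed the test between treatments.

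GATA2, a zinc-finger factor of the trophoblast and of blood progenitors, was counted 2106 to 13511 times per pool. In the control pools it was lowest at 399.5 CPM in C2.1, had a median of 660.0 CPM and reached 1737 CPM in C4.2. In the methionine-rich pools its lowest level was 284.4 CPM in M8.2, the median 611.5 CPM and the highest 950.6 CPM in M6.1. The medians lay close together, and the higher control mean (802.5 ± 481.7 CPM, SD, n = 7, against 621.4 ± 240.1 CPM, n = 8) rested mainly on C4.2, whose partner pool from the same cow was at 425.3 CPM. Averaged within cows, control cows 1 to 4 were at 552.1, 713.8, 923.8 and 1081 CPM, and methionine-rich cows 5 to 8 at 830.8, 807.5, 425.9 and 421.5 CPM. Cows 7 and 8 therefore lay below all control cows, while cows 5 and 6 lay within the control range.

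GATA3, the related factor that acts beside CDX2 in the mouse trophectoderm, was counted 77 to 585 times per pool. The control pools ran from 19.9 CPM in C1.2 over a median of 40.7 CPM to 75.2 CPM in C4.2, and the methionine-rich pools from 10.5 CPM in M6.1 over a median of 31.7 CPM to 73.9 CPM in M6.2. The extremes of the methionine-rich range were thus the 2 pools of cow 6. The means were 49.5 ± 20.5 CPM (SD, n = 7) in the control and 36.3 ± 21.9 CPM (SD, n = 8) in the methionine-rich pools. GATA2 and GATA3 did not keep a fixed proportion: there were 6.21 counts of GATA2 per count of GATA3 in C2.1, 14.7 in the median pool and 90.6 in M6.1, the pool with the least GATA3. Since the pools are bulk samples, fewer cells of a type and less RNA per cell cannot be told apart.

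TFAP2C, the AP-2 factor of the early trophoblast, was the steadiest of the set. It ranged from 236.7 CPM in C1.1 to 550.5 CPM in C4.2 among control pools, around a median of 307.1 CPM. In the methionine-rich pools it ranged from 226.5 CPM in M7.1 to 478.7 CPM in M7.2, with a median of 421.3 CPM. In 7 of the 8 methionine-rich pools it lay between 368.2 and 478.7 CPM, M7.1 being the exception. The highest level was 2.43 times the lowest over the 15 pools, and the means were 343.8 ± 107.9 CPM (SD, n = 7) and 397.2 ± 76.7 CPM (SD, n = 8). The excluded pool C3.2 stood above all others at 836.7 CPM.

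TEAD4, the DNA-binding partner of YAP1, was counted 329 to 1647 times per pool. It was lowest at 69.3 CPM in C1.1, with a median of 97.2 CPM and a highest value of 221.1 CPM in C2.2 among the control pools. The methionine-rich pools ran from 55.4 CPM in M6.2 over a median of 151.7 CPM to 229.3 CPM in M8.1. The group ranges overlapped almost fully, with the lowest of the 15 pools in the methionine-rich group, although its mean was higher (158.0 ± 55.9 CPM, SD, n = 8, against 119.2 ± 53.0 CPM, SD, n = 7). In C3.2, TEAD4 was at 4.01 CPM, far below the 69.3 CPM of the lowest other control pool.

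CDX2, the caudal-type homeobox factor that maintains the mouse trophectoderm, had 10 or more counts in 10 of the 15 pools and 3 or fewer in the other 5. The first and second pools of the control cows held 27 and 60 counts (cow 1), 11 and 21 counts (cow 2), 203 and 0 counts (cow 3) and 0 and 1 counts (cow 4). Those of the methionine-rich cows held 37 and 11 counts (cow 5), 18 and 10 counts (cow 6), 19 and 3 counts (cow 7) and no count at all (cow 8). C3.1 alone, at 27.3 CPM, held 48.2% of all CDX2 counts, whereas the other pool of that cow, C3.2, held none, which allows up to 1.72 CPM there. A count of 0 allows up to 0.495 CPM in C4.1 and up to 0.418 and 0.405 CPM in M8.1 and M8.2. The medians were 3.25 CPM in the control and 1.57 CPM in the methionine-rich pools, and cows 4 and 8, one of each treatment, were lowest in their groups at 0.0643 and 0 CPM.

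**Figure D1:**
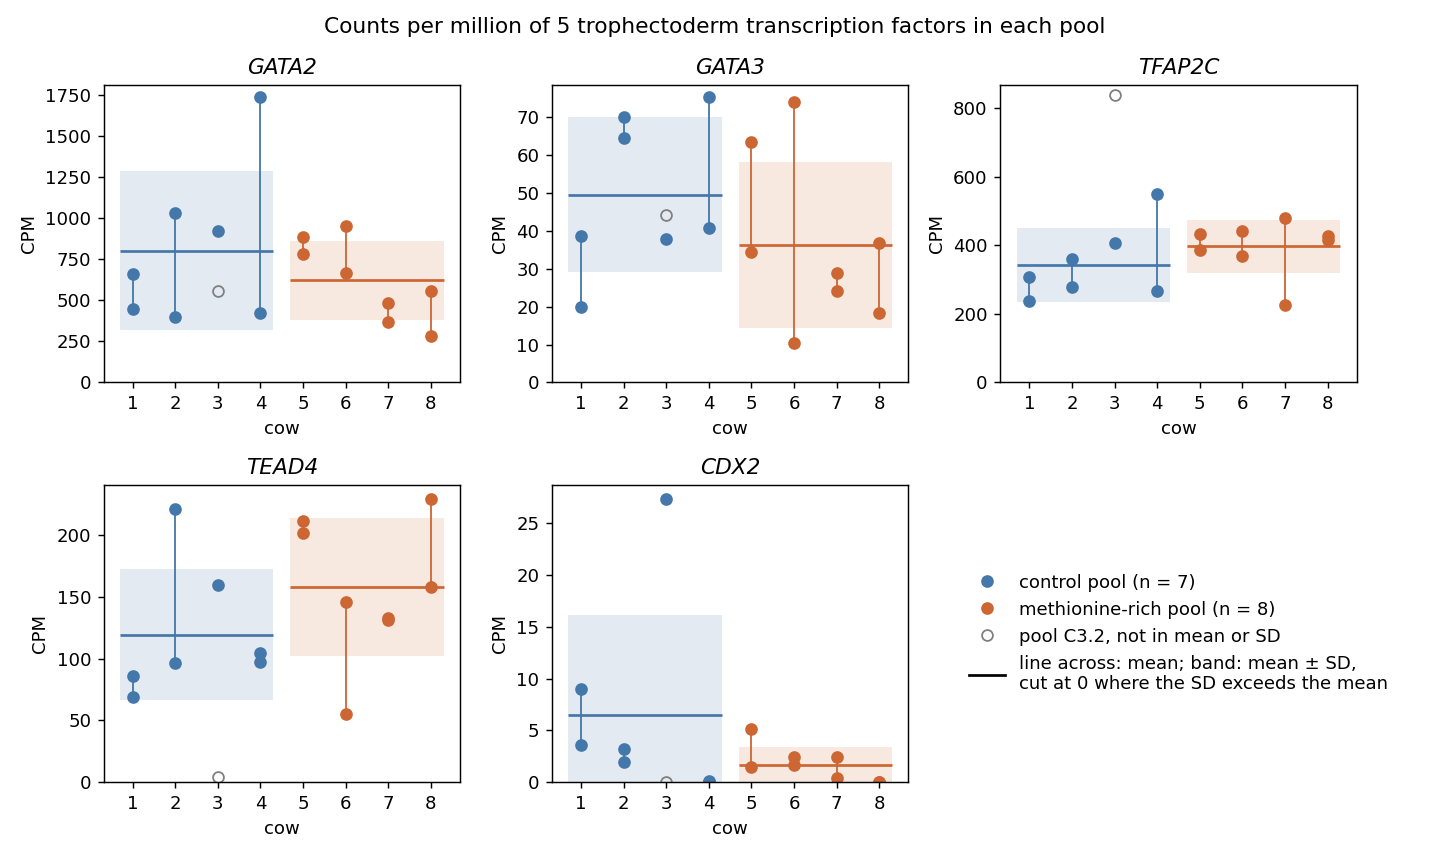
CPM of GATA2, GATA3, TFAP2C, TEAD4 and CDX2 (vertical axes, linear, different scales) in each pool, by cow (horizontal axes); pools of a cow are joined, horizontal lines and bands are the mean ± SD of the 7 control and 8 methionine-rich pools, and the open circle is C3.2. The treatments overlap in every panel, C4.2 is the highest pool for GATA2 and GATA3, and CDX2 is led by 1 pool at 27.3 CPM.

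The comparison of treatments asked whether maternal methionine changed the level of these factors. It used the exact test of edgeR over all 10519 loci whose CPM summed to at least 15 in the 15 pools, and called a locus that differed 2-fold or more with a false discovery rate (FDR) below 0.1, which are the study's settings. Of the 9 members, 6 passed the filter and 0 were called, against 110 of all loci (1.05%), 29 higher and 81 lower with methionine. The study itself reported more genes at these thresholds, so the 110 loci are the count of the present fit only. No member had an unadjusted p under 0.05 by the exact test, by edgeR's quasi-likelihood test, by DESeq2 or by limma voom with cows entered as a random term. The quasi-likelihood test called 0% of all loci, although 909 of the 10519 had an unadjusted p under 0.05. With at most 1.05% of loci called, no call among 6 genes says little about them as a set.

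GATA2 had a log2 fold change of -0.38 (methionine-rich over control), with FDR = 0.942 by the exact test and a 95% interval of -0.965 to 0.245 from DESeq2 (log2 fold change -0.36, SE 0.31). GATA3 was at -0.48 (FDR = 0.942) with an interval of -1.22 to 0.265. These intervals take no account of pools sharing a dam. TFAP2C was at 0.21 (FDR = 1.0) with the narrowest interval, -0.175 to 0.616. When C3.2 was included its log2 fold change was -0.25, so that its direction rested on leaving that pool out, and neither value passed the test. TEAD4 was at 0.43 (FDR = 0.909) with an interval of -0.151 to 1.04, and at 0.61 with C3.2 included.

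The estimate farthest from 0 was that of CDX2, at -2.06 on the log2 scale (unadjusted p = 0.0774, FDR = 0.691 by the exact test), with an interval of -4.35 to 0.196. It was -0.94 without cow 3, the source of C3.1, and -2.54 without cow 4, where the unadjusted p was 0.0147 and the FDR 0.340. ELF5 had an estimate of -0.68 (FDR = 1.0) with an interval of -6.23 to 5.82, which covers a large difference in either direction. The median log2 fold change of the 6 members was -0.43 and that of all loci tested -0.05. Leaving out C2.1, the pool with leukocyte transcripts, gave -0.46 for GATA2 and -0.35 for GATA3, against -0.38 and -0.48 with it. In C2.1, GATA2 was at 399.5 CPM, its lowest control value, and GATA3 at 64.4 CPM. Both factors are also known from blood cell lineages, and a part of leukocyte RNA in their levels was not tested.

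**Figure D2:**
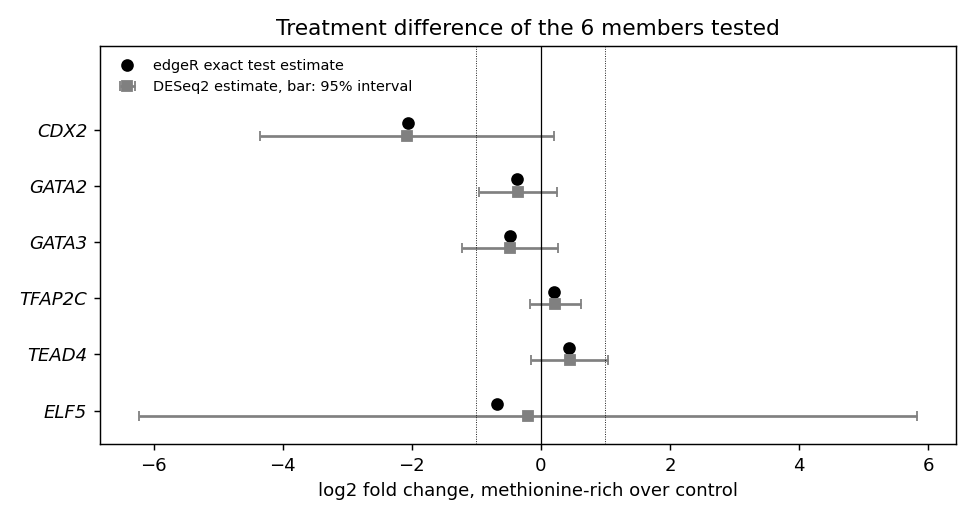
Log2 fold change (horizontal axis, methionine-rich over control, 7 and 8 pools) of the 6 members tested: circles are edgeR estimates, squares with bars are DESeq2 estimates with 95% intervals, and dotted lines mark a 2-fold difference. All 6 intervals include 0; that of TFAP2C is the narrowest (-0.175 to 0.616) and that of ELF5 spans -6.23 to 5.82.

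With the cow as the unit, the mean CPM of the 4 control and 4 methionine-rich cows overlapped in all 9 members. Complete separation of 4 from 4 cows is rare for loci without a difference, and the share over all loci is not given here. This overlap therefore says nothing particular about the members. In TFAP2A, ELF5, EOMES and ASCL2, both treatments had cows with a mean of 0. The difference for GATA2 was -196.3 CPM (methionine-rich minus control, p = 0.257, two-sided exact permutation test over 70 assignments of cows). For GATA3 it was -11.8 CPM (exact permutation p = 0.314), for TFAP2C 45.7 CPM (exact permutation p = 0.229), for TEAD4 33.8 CPM (exact permutation p = 0.371) and for CDX2 -7.38 CPM (exact permutation p = 0.257). Single pools moved some of these values: TEAD4 was at 18.2 CPM without C2.1 (exact permutation p = 0.686) and at 53.3 CPM with C3.2 included, and CDX2 was at -3.96 CPM with C3.2 included. The smallest p that this design allows is 0.0286. TFAP2C had the smallest of these p-values over the 9 members, and 4 members had the higher mean in the methionine-rich cows.

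Variation between pools was set beside that of the 4970 loci counted at least 10 times in each pool, whose SD of log2 CPM had a median of 0.78. TFAP2C had an SD of 0.38, and 3.14% of those loci had a lower one. TEAD4, at 0.62, and GATA2, at 0.69, lay below the median, with 27.5% and 37.7% of loci lower. GATA3, at 0.83, lay above it, with 56.3% of loci lower. These shares do not take the level of expression into account, and low counts carry more counting error.

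**Figure D3:**
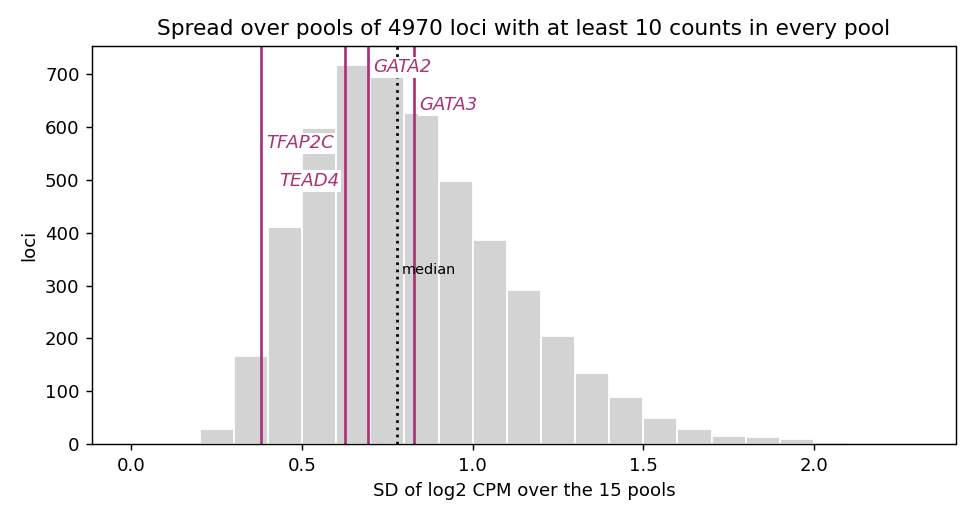
Number of loci (vertical axis) by SD of log2 CPM over the 15 pools (horizontal axis), for the 4970 loci counted at least 10 times in each pool; purple lines mark the 4 members and the dotted line the median of 0.78. TFAP2C, at 0.38, lies in the lower tail, and GATA3, at 0.83, lies beyond the median.

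Pools of a cow were not uniformly alike in these factors. The absolute log2 difference between the 2 pools of a cow (7 pairs) had a median of 0.57 for GATA2 and 0.31 for TEAD4, below the 0.76 and 0.61 seen between cows of the same treatment (42 pairs). For GATA3 the medians were 0.88 within and 0.90 between cows, and for TFAP2C the within-cow median of 0.37 exceeded the between-cow 0.24. The widest pair was that of GATA3, at a log2 difference of 2.78, and the widest pair of GATA2 was at 2.03. A pair of sister pools could thus differ by more than the treatment means did.

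TFAP2A, the other AP-2 factor of the set, had 68 counts over the 15 pools. They lay in C1.1 with 16 counts, C4.1 with 23, M5.1 with 3, M6.1 with 19, M6.2 with 5 and M7.2 with 2, and 9 pools had none. Its highest level was 3.79 CPM in C4.1.

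ELF5, an Ets factor of the trophoblast stem cell, had 159 counts, 96.2% of them in C4.1 with 80 (13.2 CPM) and in M6.1 with 73 (9.95 CPM). The remaining counts were 2 in C2.1, 1 in C4.2, 1 in M6.2 and 2 in M8.2. The partner pools of C4.1 and M6.1 had 1 count each, so ELF5 was not shared between the pools of a cow. The excluded pool C3.2 held 529 counts of ELF5, or 303.1 CPM, while its partner C3.1 held none. With C3.2 included, the log2 fold change was -5.61 (unadjusted p = 0.0140, FDR = 0.212 by the exact test), a value that rests on that pool.

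EOMES, a T-box factor of the trophoblast and of mesoderm and lymphocytes, was counted 62 times in M6.1 (8.45 CPM), 1 time in M6.2 and in no other pool, C3.2 included. M6.1 held 98.4% of its counts. ASCL2, a basic helix-loop-helix factor of the trophoblast that is imprinted in the mouse, had 52 counts in M6.1 (7.08 CPM), 15 in C2.2, 9 in M7.2, 6 in C2.1 and 1 in M7.1, and M6.1 held 62.7% of them. EOMES and ASCL2, like TFAP2A, summed to under 15 CPM over the 15 pools and were not tested between treatments.

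**Figure D4:**
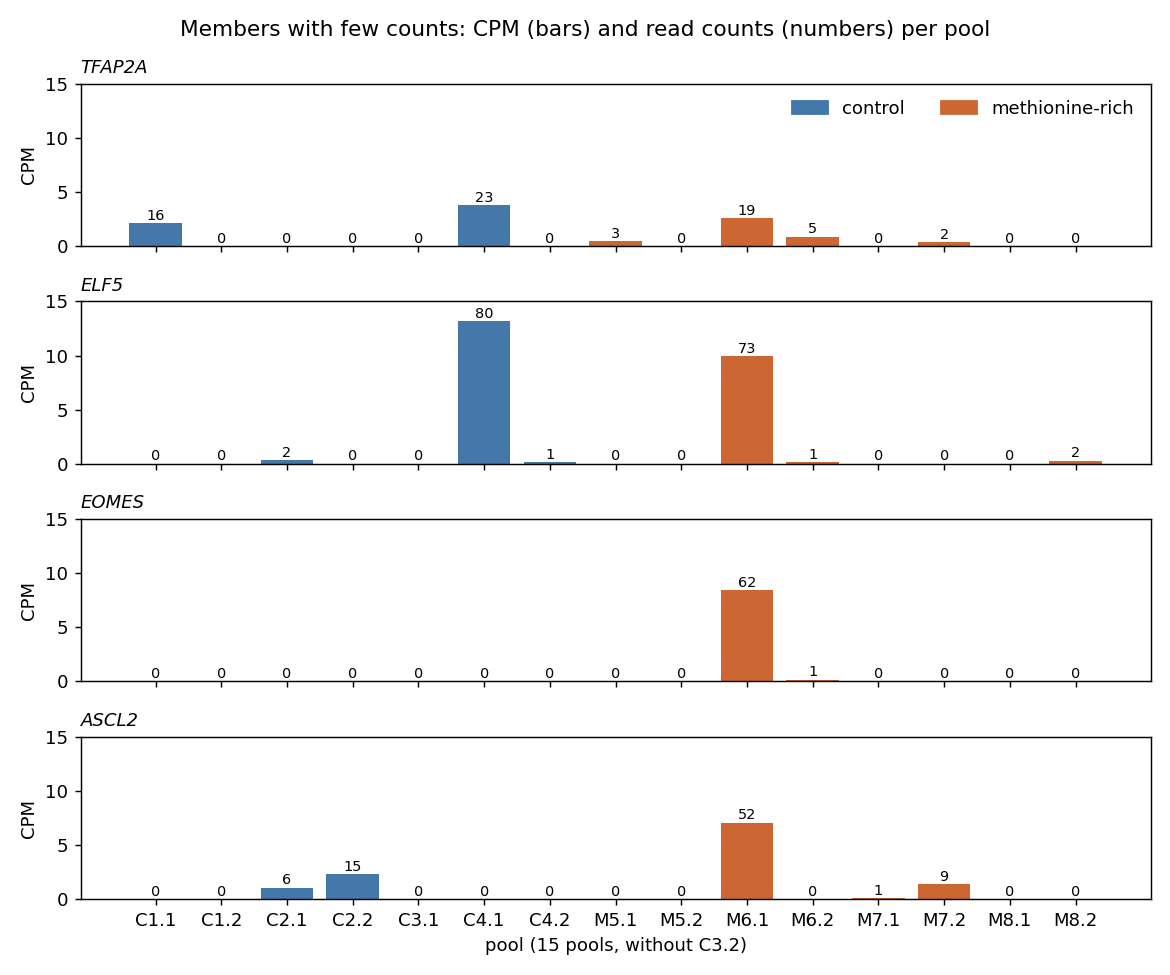
CPM (bars, vertical axes from 0 to 15) and counts (numbers) of TFAP2A, ELF5, EOMES and ASCL2 in the 15 pools, control in blue and methionine-rich in orange. M6.1 holds counts of all 4 genes, and C4.1 of TFAP2A and ELF5; C3.2, not drawn, held 529 counts of ELF5 and none of the other 3.

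M6.1 was the only one of the 15 pools with at least 3 counts of all 4 of these genes, C4.1 had 2 of them and no other pool more than 1. Unevenness of single loci was common at this abundance. How often several loci are counted together in 1 pool was not examined. Of the 2764 loci with 50 to 200 counts over the 15 pools, 44.6% had at least 50% of their counts in 1 pool and 12.6% had at least 90%, and the median locus had no count in 7 pools. In M6.1, 32.9% of these loci had 3 or more counts, against 28.7% to 53.3% over all 15 pools. M6.1 held at least 50% of the counts of 105 of the 2764 loci, against 42 to 172 loci over the 15 pools. Of the 349 loci with at least 90% of their counts in 1 pool, that pool was M6.1 for 40, against 3 to 57 over the 15 pools, and only C2.1 had more. M6.1 also led in TFAP2B, a paralog described below, and in PGR, the progesterone receptor, with 183 of its 184 counts, a gene named after its values were seen. Over the marker lists, M6.1 had the highest hypoblast sum of the 15 pools, 378.5 CPM, with M8.2 next at 376.6 CPM. PDGFRA gave 238.4 CPM and GATA6 97.8 CPM of the M6.1 sum, while SOX17, HNF4A and FOXA2 gave none. The inner cell mass sum of M6.1, 180.5 CPM, lay within the range of the other pools. Its cumulus or granulosa sum was 56.5 CPM (up to 34.2 CPM in the other methionine-rich and 69.0 CPM in control pools), of which CYP19A1 gave 48.4 CPM, while FSHR, FOXL2, AMH, HAS2, PTX3, INHBA and TNFAIP6 were at 0. Its endometrial sum was 33.0 CPM (methionine-rich pools 0.835 to 41.1 CPM), of which PGR gave 24.9 CPM, while PAEP, MUC1, OXTR, FOXA2, MUC16 and LTF were at 0, and its leukocyte sum was 1.64 CPM. SOX17, FOXL2, PAEP and OXTR had no count in any of the 15 pools. FSHR and AMH had counts in 1 pool, and HAS2, PTX3 and TNFAIP6 in 2. Zeros of the genes just named are therefore not particular to M6.1. This does not hold for HNF4A, which had 135 counts over 14 of the 15 pools, all but M6.1. INHBA and MUC1 each had counts in 8 pools. The part of the marker transcripts in the levels of EOMES, ELF5 and ASCL2 was not tested.

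The paralogs of the members were taken from 23 named genes of the same families, of which 20 had a row and 9 could be tested. None of the 9 was called, and their median log2 fold change was 0.27. TBX3, a T-box relative of EOMES, was counted in every pool at 1027 to 2688 CPM (M6.1 highest), with means of 1253 ± 238.2 CPM (SD, n = 7) and 1523 ± 537.2 CPM (SD, n = 8) and a log2 fold change of 0.27 (FDR = 0.975). The other EOMES relatives, TBR1 and TBX21, had 44 and 7 counts in all.

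Among the GATA factors, GATA6, the hypoblast member, was at 74.5 ± 41.6 CPM (SD, n = 7) in control and 93.0 ± 28.9 CPM (SD, n = 8) in methionine-rich pools (log2 fold change 0.31, FDR = 0.990). GATA1 had no count in any pool, and GATA4 and GATA5 had 10 and 38 in all. Among the AP-2 factors, TFAP2B had 710 counts, of which 558 lay in M6.1 (76.0 CPM), the pool that also held all 4 of the sparsely counted members, and TFAP2D had 45. The log2 fold change of TFAP2B was 1.37 (FDR = 1.0).

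Of the relatives of TEAD4, TEAD1 averaged 8.72 ± 7.54 CPM (SD, n = 7) in control and 5.45 ± 6.14 CPM (SD, n = 8) in methionine-rich pools. TEAD2 averaged 7.38 and 9.60 CPM, and TEAD3 8.02 and 9.05 CPM. Their log2 fold changes were -0.78, 0.48 and 0.16. Of the Ets relatives of ELF5, ELF2 averaged 168.7 ± 68.0 CPM (SD, n = 7) and 112.5 ± 42.8 CPM (SD, n = 8), a log2 fold change of -0.62 (unadjusted p = 0.0787, FDR = 0.696 by the exact test). ELF4 averaged 28.1 and 25.6 CPM, and ELF1 7.81 and 15.3 CPM with its highest value, 39.7 CPM, in M6.1. EHF, the epithelial relative of ELF3, had 1 count in all. CDX1, a relative of CDX2, had 4 counts, and ASCL3 and ASCL4, relatives of ASCL2, had none.

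Of 23 further transcription factors known from trophoblast, 17 were tested and none was called in either direction, with a median log2 fold change of -0.14. One of them, KLF6, had an unadjusted p under 0.05 (65.7 against 34.0 CPM, log2 fold change -1.04, FDR = 0.368 by the exact test) and is named after its value was seen. The list of 18 regulators of the Hippo pathway, which sets whether TEAD4 finds YAP1 in the nucleus, had 15 members tested and none called, with a median of -0.14. YAP1 itself was not analysed here, since no row carried that symbol. SAV1, a scaffold of the Hippo kinases that was also chosen after its value was seen, had an unadjusted p of 0.0334 (FDR = 0.476 by the exact test), with 236 of its 276 counts in M8.2.

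Of 10 epithelial genes of the trophectoderm, all were tested and none was called, with a median log2 fold change of -0.42. KRT18 averaged 4178 ± 1307 CPM (SD, n = 7) in control and 2887 ± 1062 CPM (SD, n = 8) in methionine-rich pools (log2 fold change -0.54, unadjusted p = 0.0577, FDR = 0.616 by the exact test). KRT8, its partner in the filament and the only one of the 10 with an unadjusted p under 0.05, averaged 618.7 and 292.4 CPM (log2 fold change -1.10, FDR = 0.309 by the exact test). C4.2 held the highest level of KRT8, 2114 CPM, and among the 15 pools also that of GATA2, GATA3 and TFAP2C. Without C4.2 the control mean of KRT8 was 369.5 ± 99.6 CPM (SD, n = 6), so its difference rested largely on that pool.

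Markers of the other cell types gave the following counts. None of 7 tested inner cell mass markers and none of 8 tested hypoblast markers was called. DPPA3 averaged 100.7 and 85.1 CPM and POU5F1 34.8 and 29.8 CPM in control and methionine-rich pools, and PDGFRA averaged 80.9 and 97.9 CPM. Of 6 tested leukocyte markers, TYROBP, LAPTM5, CD53 and LCP1 were called lower with methionine, and C2.1 was the pool with most of each, with 1239 CPM of LAPTM5 and 2122 of the 2131 counts of TYROBP. None of 4 tested endometrial and none of 3 tested cumulus or granulosa markers was called. SPP1 reached 226.5 CPM in C2.1 and FOXA2 40.5 CPM in M8.2, and CYP19A1 averaged 14.71 and 15.04 CPM and STAR 6.97 and 3.20 CPM in control and methionine-rich pools. By the quasi-likelihood test no gene of any of these lists was called.

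Correlations between the members over the 15 pools were low to moderate. Spearman's rho between pairs of the 5 best-counted members, given as a description over pools that share cows and amplification, ran from -0.34 for CDX2 and TFAP2C to 0.51 for GATA2 and TFAP2C. GATA2 and GATA3 were at 0.23, TFAP2C and TEAD4 at 0.35, and GATA3 and TEAD4 at -0.28. CDX2 and TEAD4 were at -0.08, and CDX2 and GATA3 at -0.01.

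The highest correlations with other loci were the top values among 4969 loci compared. The pattern most like that of TFAP2C was that of EIF4A3, an RNA helicase of the exon junction complex (rho 0.95, Pearson's r 0.90 on log2 CPM). BZW1 followed (rho 0.93, r 0.88). For GATA2 the closest were TNKS1BP1, a tankyrase-binding protein (rho 0.90, r 0.92), and FAM118B (rho 0.88, r 0.87). For TEAD4 they were ALG1, a mannosyltransferase of N-glycan assembly (rho 0.86, r 0.72), and ETF1, the translation termination factor (rho 0.85, r 0.85). The lowest level of ALG1 was 1.41 CPM. For GATA3 they were FAM100B (rho 0.82, r 0.78) and UBE2K, a ubiquitin-conjugating enzyme (rho 0.78, r 0.75). The number of loci with rho above 0.7 was 99 for GATA2, 47 for TEAD4, 36 for TFAP2C and 26 for GATA3. With pool C2.1 left out the 8 rho values lay between 0.79 and 0.95.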

How the data were processed

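RNA of each embryo pool was amplified and sequenced in barcoded libraries by the authors, who mapped reads to bosTau7 with TopHat2 2.0.4, assembled transcripts with Cufflinks 2.0.2 and counted reads per locus with HTSeq (versions from the submitters' processing notes). The deposited values are raw counts per locus, with 22552 rows per pool; a locus listed under several gene names (182 of 22358 loci) was used once. The strand setting of the counting and the lane and sire of each pool are not given in the sources used here, and linear amplification from little RNA can add scatter at low levels. No gene coordinates or sequences are printed, because the gene table at hand is of another assembly. Groups were taken from the labels.

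CPM was the count over the pool total. The main test was the exact test of edgeR 4.0.16 in R 4.3.3 with TMM normalization and common and tagwise dispersion, on 15 pools (C3.2 left out) and loci with a summed CPM of at least 15; p-values were adjusted by Benjamini-Hochberg over all loci. The quasi-likelihood test of edgeR, DESeq2 1.42.0 (for SE and intervals, 1.96 SE to each side) and limma 3.58.1 were run beside it. All fits were run on simulated data. The simulated pools were independent and less dispersed than the real ones (common dispersion 1.142), so behaviour on data like these was not tested. Cow means were compared by exact permutation. Correlations used log2 CPM with a prior count of 2. Alternatives were normalization, filter, threshold, test, pools included, summed pools, a replicate block and each cow left out. Named genes were the 10 members, the 2 loci most like each well-counted member, called genes of the lists, tested paralogs and the 2 most abundant genes of each marker list, with exceptions stated. Members and lists were chosen with earlier results of these data known.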

Additional observations from a re-analysis of the deposited data

Results flagged for a closer look

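Single pools stood far from the rest of their treatment group in 7 of the 17 sets of pool values examined (9 members in each treatment, less the set of EOMES in the control pools, which has no count) and chance alone marks about 1 in 20 such sets of well-behaved values, and counts that are mostly 0 are marked far more readily. CDX2 reached 27.3 CPM in C3.1, with the next control pool, C1.2, at 8.998 CPM. TFAP2C lay below its group in M7.1, at 226.5 CPM, with the next methionine-rich pool at 368.2 CPM; it was the only one of the 7 that was a low value in a gene counted in every pool. ELF5 was marked in both treatments, at 13.2 CPM in C4.1 and 9.95 CPM in M6.1. M6.1 was also the far pool for EOMES (8.45 CPM), ASCL2 (7.08 CPM) and TFAP2A (2.59 CPM). In the excluded pool C3.2, TFAP2C was at 836.7 CPM and ELF5 at 303.1 CPM, above the highest other control pools at 550.5 and 13.2 CPM. No explanation of these values was tested.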

How the results depend on the processing

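No member was called in any of the 21 settings. Of 116 log2 fold changes recomputed under the alternatives, 114 kept their direction and none passed an FDR of 0.1, though not on the same side of a 2-fold difference: CDX2 was at -0.94 without cow 3, and ELF5 at -1.16 without cow 1, -1.15 without cow 2 and -5.61 with all 16 pools. That of TFAP2C turned to -0.25 with all 16 pools, and that of ELF5 to 0.0439 in a quasi-likelihood fit that took the pool numbers as a replicate block; the pool number does not mark a shared batch in the labels, and the block changed no call. Of 36 differences of cow means, that of TFAP2C turned to -8.19 CPM with all 16 pools, where that of ELF5 was -38.3 CPM, and that of TFAP2A to 0.0845 on the mean log2 CPM scale. The mean of ELF5 in the control pools was 39.6 CPM with C3.2 included. Leaving out each cow moved the log2 fold change of CDX2 between -2.54 and -0.94, that of GATA2 between -0.51 and -0.18 and that of GATA3 between -0.66 and -0.28. The number of all loci called, 110 by the exact test, was 341 with all 16 pools, 6 with a filter of 1 CPM in 7 pools, 55 with no filter but 1 count, 64 without C2.1, 67 by DESeq2, 62 to 153 with a cow left out, and 0 by the quasi-likelihood test with and without the block and by limma voom. ELF5 failed the filter without cow 4, without cow 6, without M6.1 (a setting chosen after seeing the data) and at 1 CPM in 7 pools. Depth limits CDX2, TFAP2A, ELF5, EOMES and ASCL2, where 3 counts are 0.383 to 0.533 CPM.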
